A study of Mus musculus with 6 samples.

Results

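Chemokines are small secreted proteins that steer the migration of leukocytes, and they act through chemokine receptors on the surface of the responding cells. The genes described here are those whose array probe sets carry a single symbol that names a Ccl or Cxcl ligand, a Ccr or Cxcr receptor, Cx3cl1, Cx3cr1 or Xcr1. They were chosen by name. Where a gene had several probe sets, the brightest on average stands for it. This gave 48 genes of 18193, of which 32 encode ligands and 16 encode receptors, and 30 of them had 1 probe set.

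The libraries came from cells sorted from the colon of mice of the strain Mapttm1(EGFP)Klt/J, in which EGFP is expressed from the Mapt locus, the gene of the neuronal microtubule protein tau. Of the 6 libraries, 3 are labelled Mapt-EGFP+ colonic neurons (EGFP-positive below) and 3 Mapt-EGFP- myenteric cells (EGFP-negative below). All mice of both groups had received a fluorescent cholera toxin subunit B in the celiac ganglion under pentobarbital anaesthesia and were killed 3 to 4 days after that surgery. Each library pooled cells of 2, 4 or 6 mice, and the labels give neither the number for a given library nor the age or sex. Every value below is a deposited log2 expression value, listed for replicates 1, 2 and 3 in that order, and every difference is EGFP-positive minus EGFP-negative on the log2 scale.

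The labels were first set against Mapt, whose probe set read 1.43, 1.32 and 5.55 in the EGFP-positive libraries and 1.44, 1.64 and 1.38 in the EGFP-negative ones. The array's background, taken from 3 probe sets for the bacterial control TrpnX, was 1.00 to 1.48. Thus the libraries labelled EGFP-positive replicates 1 and 2 did not exceed background for Mapt, and all directions below refer to the labels. EGFP is expressed from the Mapt locus, so the Mapt probe set does not read EGFP itself and cannot settle the label. Per library, 6182 to 7621 probe sets read above 6, and EGFP-negative replicate 1 had the fewest. The precision is limited by the number of arrays.

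Receptors of this family are coupled to G proteins of the Gi class, and ligands are grouped as CC, CXC or CX3C by the spacing of their first cysteines. Homeostatic ligands such as Cxcl12 are made continuously by stromal cells, whereas inflammatory ligands such as Ccl2, Ccl3 and Cxcl2 are induced when tissue is disturbed. In the gut muscle layer, resident macrophages lie close to the myenteric ganglia, and Ccr2-bearing monocytes replenish part of that population.

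As a group the chemokine and receptor genes read lower in the libraries labelled EGFP-positive, and the receptors Ccr1 and Ccr2 and the ligands Ccl3, Ccl12 and Cxcl2 kept their groups apart in every alternative that tested them. The difference was below 0 for 43 of the 48 genes, against 53.6% of all genes, and the median difference was -0.64, against -0.02 over all genes. With arrays centred on ribosomal protein genes 30 of the 48 were below 0 and their median was -0.28, against a median of 0.34 over all genes. For 16 of the 48 (33.3%) every EGFP-positive value lay below every EGFP-negative value, a pattern found in 6.04% of all genes, and for 0 of the 48 the reverse held, against 3.07%. For 12 of them (25.0%) the difference was also -1 or less, against 1.50% of all genes. In bulk samples, fewer cells of a type and less RNA per cell cannot be told apart.

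No single gene passed the test across all genes. With limma and Benjamini-Hochberg adjustment 0 of the 48 were called, and 0% of the 18193 genes were, with adjusted p from 0.951 to 1.00 for the 48. An unadjusted p under 0.05 was reached by 13 of the 48 as lower and by 0 as higher, against 3.43% and 1.48% of all genes. Same-numbered libraries of the 2 groups deviated together, and 28 of the 48 genes were lower in 3 of 3 such pairs, against 16.8% of all genes. With the replicate number as a block 0 of the 48 and 0% of all genes were called (smallest limma adjusted p over the 48 = 0.661), and 17 of the 48 had an unadjusted p under 0.05 as lower, against 4.54%. Without EGFP-positive replicate 1, Ccr2 was 1 of 2 genes called among the 18193 (limma adjusted p = 0.0251). That replicate is the 1 EGFP-positive library with Ccr2 above background, and it had the highest macrophage markers of its group.

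**Figure D1:**
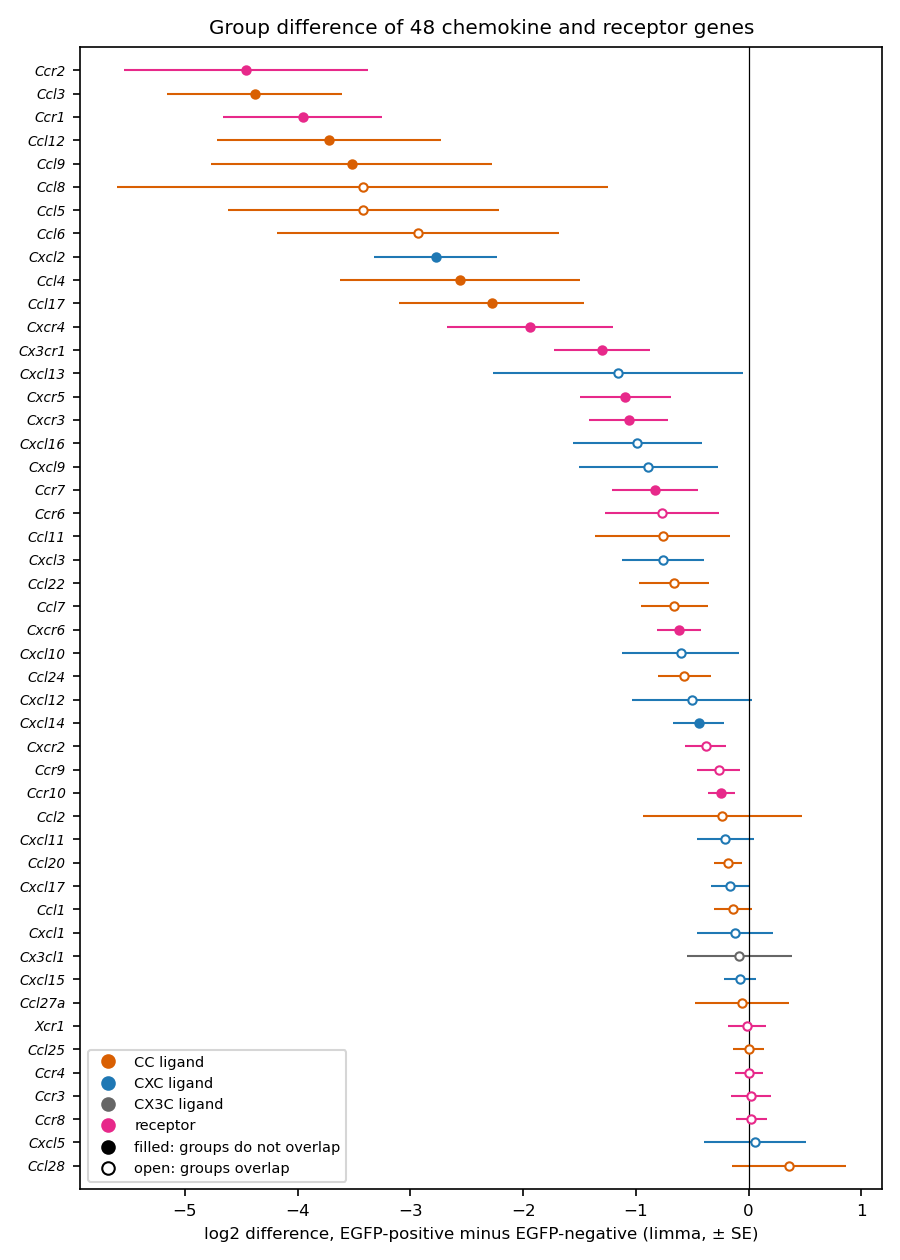
Log2 difference between the groups (x axis, limma estimate with its SE) for each of the 48 genes (y axis), coloured by ligand class or receptor and filled where the groups do not overlap. All 16 filled points lie below 0, from Ccr2 at -4.46 to Ccr10 at -0.24. Ccr10 was at or below the TrpnX maximum in every library.

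Among the ligands, 16 read above 6 in at least 1 library, and 5 did so in all 6: Ccl2, Ccl7, Cxcl1, Cxcl5 and Cxcl12. The groups overlapped for these 5 and for Ccl11. Ccl2, the main attractant of Ccr2-bearing monocytes, read 6.64, 8.80 and 7.91 in the EGFP-positive libraries and 6.97, 8.33 and 8.74 in the EGFP-negative ones. The groups overlapped almost fully, with replicate 1 lowest in each, and the difference was -0.23 (SE 0.70). Ccl7, a further monocyte attractant, read 6.83, 7.78 and 6.86 against 7.57, 7.94 and 7.93. It was lower in each same-numbered pair, the groups overlapped through EGFP-positive replicate 2, and the difference was -0.66 (SE 0.30, and SE 0.22 with the replicate block). Ccl11, the eosinophil attractant eotaxin, read 5.86, 7.05 and 7.10 against 6.51, 8.45 and 7.34, so that each pair differed in the same direction while the groups overlapped (difference -0.76, SE 0.60, and SE 0.27 with the block). It was -0.25 without EGFP-negative replicate 2 and -1.23 without EGFP-negative replicate 1.

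Of the CXC ligands bright in every library, Cxcl1 and Cxcl5 attract neutrophils and Cxcl12 holds leukocytes and their precursors in tissue. Cxcl1 read 7.63, 8.37 and 7.14 against 8.07, 7.81 and 7.61. EGFP-positive replicates 2 and 3 held its highest and lowest values, and the difference was -0.12 (SE 0.34). Cxcl5 read 7.27, 7.32 and 7.60 against 6.64, 7.04 and 8.35, with the EGFP-positive values inside the EGFP-negative range and a difference of 0.06 (SE 0.45). The signs of Ccl2 and Cxcl1 turned when arrays were centred on ribosomal protein genes (0.12 and 0.24), and that of Cxcl5 turned with array weights (-0.04). Cxcl12 read 7.58, 7.94 and 7.48 against 6.98, 8.83 and 8.71. For this probe set EGFP-negative replicate 1 was the lowest of all 6 libraries and the other EGFP-negative libraries were the highest (difference -0.50, SE 0.53). The difference was -1.10, -0.17 and -0.23 without EGFP-negative replicates 1, 2 and 3. A second bright probe set read 5.69, 7.05 and 6.09 against 6.45, 7.32 and 7.59, lower in each same-numbered pair (difference -0.85). Its EGFP-negative replicate 1 was above EGFP-positive replicates 1 and 3. The third probe set, dim in all libraries, gave 0.10.

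The second set of ligands had mean differences of -2 or less, and most of its genes read above 6 in at least 1 EGFP-negative library. Ccl3, an inflammatory ligand of Ccr1 made by activated macrophages, read 1.88, 0.61 and 0.83 in the EGFP-positive libraries and 4.37, 7.09 and 5.00 in the EGFP-negative ones. Its lowest EGFP-negative value lay 2.49 above its highest EGFP-positive value, and the difference was -4.38 (SE 0.78). Because 2 EGFP-positive values lay below the TrpnX range, the size of that difference cannot be read exactly. Ccl4, which is closely related to Ccl3, read 2.09, 1.11 and 1.16 against 3.21, 6.39 and 2.44. The groups were separated by only 0.35, and without EGFP-negative replicate 2 the difference moved from -2.56 to -1.37. Ccl5, a ligand of T cells and of Ccr1-bearing cells, read 2.30, 1.38 and 0.98 against 2.30, 6.76 and 5.86. EGFP-negative replicate 1 was at the level of EGFP-positive replicate 1, and the difference was -3.42 (SE 1.20). For Ccl4 and Ccl5 EGFP-positive replicates 2 and 3 were at or below the TrpnX maximum, so these sizes are not exact.

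Ccl6 and Ccl9, CC ligands made by myeloid cells, were graded among the EGFP-positive libraries. Ccl6 read 8.60, 6.80 and 4.01 against 10.02, 10.05 and 8.14. EGFP-positive replicate 1 reached the lowest EGFP-negative value, so the groups overlapped (difference -2.93, SE 1.25, and -1.70 without EGFP-positive replicate 3). Ccl9 read 6.71, 5.33 and 2.22 against 9.11, 8.68 and 7.04, with the groups apart by 0.34 and a difference of -3.52 (SE 1.25, and -2.26 without EGFP-positive replicate 3). The second probe sets of Ccl6 and Ccl9 gave differences of -3.26 and -4.13. In both genes EGFP-positive replicate 3 was lowest of its group, and so was EGFP-negative replicate 3 of its own.

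Ccl12 and Ccl8 are relatives of Ccl2, and in the mouse Ccl12 signals through Ccr2. Ccl12 read 3.48, 0.68 and 0.79 in the EGFP-positive libraries and 6.49, 5.64 and 4.00 in the EGFP-negative ones. Only EGFP-positive replicate 1 was above the TrpnX range in its group, and the difference was -3.72 (SE 1.00, and SE 0.46 with the replicate block). As for Ccl3, values under the TrpnX range leave its exact size unreadable. Ccl8 read 6.01, 3.88 and 0.48 against 8.95, 8.83 and 2.87, with EGFP-negative replicate 3 below EGFP-positive replicates 1 and 2. Its difference of -3.42 had an SE of 2.18, and of 0.57 with the replicate block, and all 3 pairs were lower. It was -1.94 without EGFP-positive replicate 3 and -5.43 without EGFP-negative replicate 3. EGFP-positive replicate 3 was under the TrpnX range, so the size for Ccl8 is not exact. Ccl17, a ligand of Ccr4 made by dendritic cells, read 1.26, 0.90 and 0.98 against 1.48, 4.68 and 3.82, and EGFP-negative replicate 1 stood at the upper edge of the TrpnX range (difference -2.28, SE 0.82). All 3 EGFP-positive values were at or below the TrpnX maximum, so this size is not exact either.

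Among the CXC ligands Cxcl2 stood apart between the groups, and Cxcl10 and Cxcl16 did not. Cxcl2, a neutrophil attractant, read 6.11, 5.82 and 4.21 against 7.85, 7.99 and 8.63. All 6 libraries were well above the TrpnX range, the groups were separated by 1.74, and the difference was -2.78 (SE 0.55). Cxcl10, an interferon-induced ligand of Cxcr3, read 4.72, 6.05 and 4.81 against 5.53, 6.62 and 5.24, lower in each pair with overlapping groups (difference -0.60, SE 0.52). Without EGFP-positive replicates 1 or 2 or EGFP-negative replicate 2 it was -0.37, -1.03 and -0.19. Cxcl16, a membrane-anchored ligand of Cxcr6, read 5.53, 4.96 and 3.87 against 6.60, 5.71 and 5.01. It too was lower in each pair and overlapped between groups, with a difference of -0.99 (SE 0.57). The difference was -0.53 without EGFP-positive replicate 3 and -0.57 without EGFP-negative replicate 1. A second Cxcl16 probe set of similar level gave -0.86. In that probe set EGFP-positive replicate 1 (5.92) was above EGFP-negative replicate 1 (5.72).

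**Figure D2:**
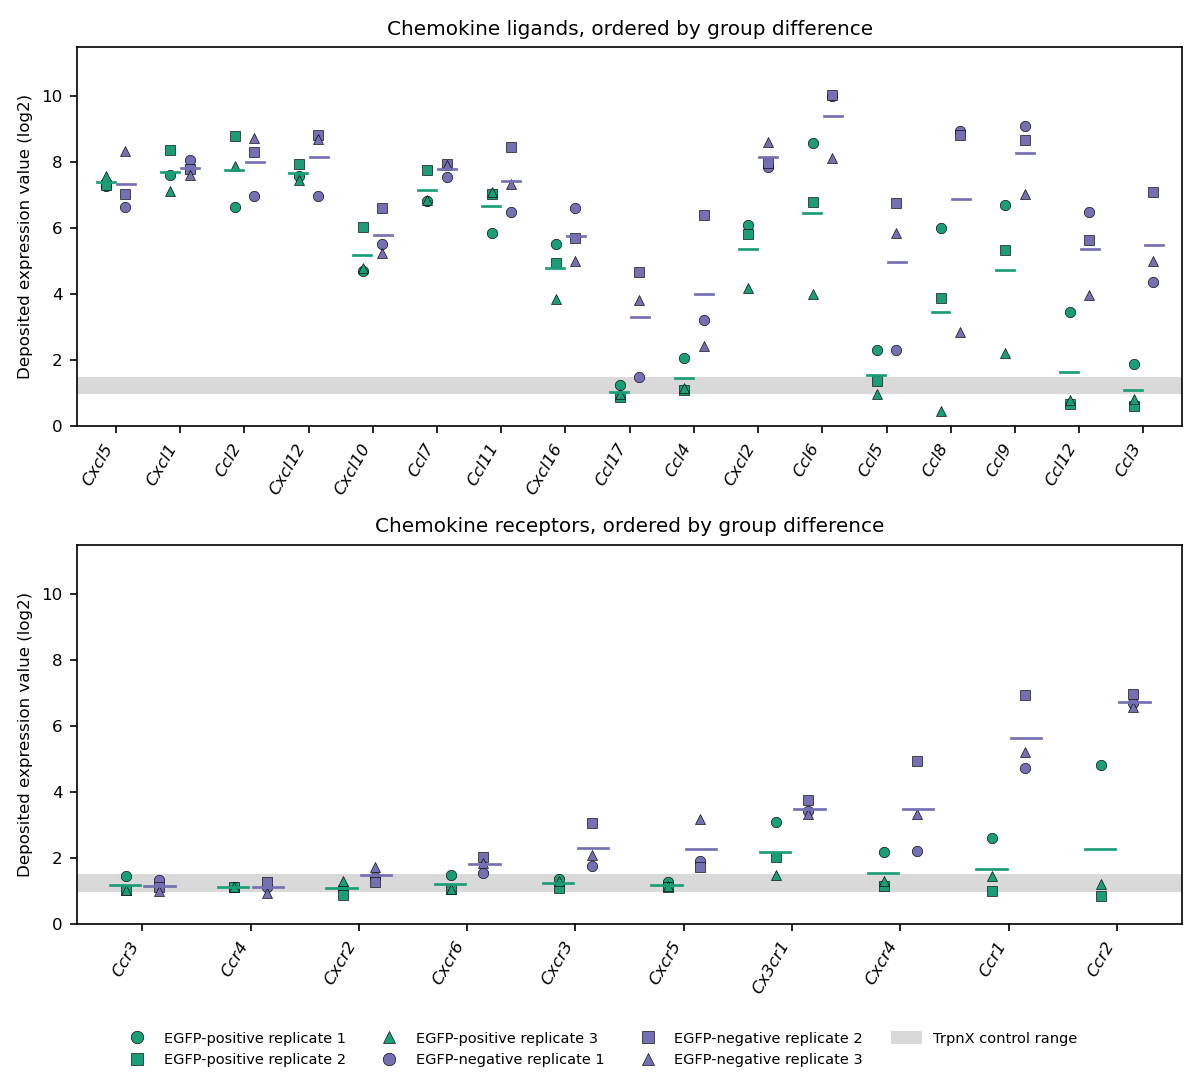
Deposited log2 value (y axis) of the 27 genes given with values in every library, ligands above and receptors below, with 1 point per library, a bar at each group mean and the TrpnX background as a grey band. Ccl2, Cxcl1, Cxcl5 and Cxcl12 overlap between groups, while Ccl3, Ccr1 and Ccr2 are separated by 1.76 or more.

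Of the 16 receptors, 9 had groups that did not overlap (56.2%, against 6.04% of all genes), each lower in the EGFP-positive libraries: Ccr1, Ccr2, Ccr7, Ccr10, Cx3cr1, Cxcr3, Cxcr4, Cxcr5 and Cxcr6. Of these, Ccr10 read 0.93 to 1.32, at or below the TrpnX maximum in all 6 libraries, so no difference can be read for it. Ccr2, the receptor of inflammatory monocytes, read 4.81, 0.84 and 1.21 in the EGFP-positive libraries and 6.69, 6.96 and 6.57 in the EGFP-negative ones. The EGFP-negative libraries were close to each other (SD 0.20, n = 3), while in the EGFP-positive group replicate 1 was clearly above background and replicates 2 and 3 were not. The difference was -4.46 (SE 1.08), its size not exact for that reason, and the other 3 probe sets of Ccr2, all dim, gave -1.02 to -0.58. Ccr1, a receptor of monocytes, macrophages and neutrophils, read 2.60, 0.98 and 1.45 against 4.74, 6.94 and 5.22. The groups were apart by 2.14, with a difference of -3.96 (SE 0.70), and the second probe set, dim in all libraries, gave -0.67. EGFP-positive replicates 2 and 3 did not exceed the TrpnX maximum, so the size of the first difference is not exact.

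The other receptors were dimmer, and 13 of the 16 stayed under 4 in every library. Cx3cr1, the fractalkine receptor of monocytes and many tissue macrophages, read 3.08, 2.04 and 1.47 against 3.41, 3.75 and 3.32. EGFP-positive replicate 1 lay 0.25 below the lowest EGFP-negative value, and the difference was -1.30 (SE 0.42), while the second probe set, near background in all libraries, gave 0.07. Cxcr4, the receptor of Cxcl12 on most leukocytes, read 2.19, 1.14 and 1.31 against 2.20, 4.94 and 3.32. Its groups were separated by 0.01 only, between the replicates numbered 1, and the difference was -1.94 (SE 0.73, and -1.21 without EGFP-negative replicate 2). EGFP-positive replicates 2 and 3 of Cxcr4 and replicate 3 of Cx3cr1 were at or below the TrpnX maximum, so neither size is exact.

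Receptors of lymphocytes were near background in the EGFP-positive libraries. Cxcr3, on activated T cells, read 1.36, 1.08 and 1.29 against 1.77, 3.07 and 2.08 (difference -1.06, SE 0.35, and -0.68 without EGFP-negative replicate 2). Cxcr5, which guides B cells to follicles, read 1.27, 1.11 and 1.14 against 1.90, 1.72 and 3.19 (difference -1.09, SE 0.40, and -0.63 without EGFP-negative replicate 3). Both were highest in an EGFP-negative library other than replicate 1, as were all 9 receptors with separate groups. The share of all genes with this pattern was not counted, and EGFP-negative replicate 1 had the fewest probe sets above 6. Cxcr6, on T and innate lymphoid cells, read 1.48, 1.06 and 1.06 against 1.55, 2.05 and 1.85, a separation of 0.08.

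Receptors of several bright or separated ligands gave no readable level. Cxcr2, through which Cxcl1, Cxcl2 and Cxcl5 act on neutrophils, read 1.10, 0.89 and 1.29 in the EGFP-positive libraries and 1.42, 1.27 and 1.73 in the EGFP-negative ones. Ccr3, the eosinophil receptor of Ccl11, read 1.46, 1.03 and 1.03 against 1.34, 1.13 and 0.98. Ccr4, the receptor of Ccl17, read 1.12 in 4 libraries, and 1.28 and 0.95 in EGFP-negative replicates 2 and 3. These values lie in or beside the TrpnX range, and no difference can be read for Ccr3 and Ccr4.

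The remaining 21 genes ranged from 0.66 to 5.46, and 20 of them stayed under 4.1 in every library. Their differences ran from -1.16 (Cxcl13) to 0.36 (Ccl28), and 3 had separate groups, Ccr7, Ccr10 and Cxcl14, each lower in the EGFP-positive libraries by less than 1. Cxcl13, the B cell attractant that binds Cxcr5, read 1.95, 3.26 and 0.96 against 2.04, 5.46 and 2.14, with replicate 2 highest in each group. Ccl28, an epithelial ligand of Ccr10, was the 1 gene of the family with a difference above 0.1, at 3.31, 3.44 and 1.87 against 2.16, 3.12 and 2.27, within the spread of the libraries. Its other probe sets, near background in all libraries, gave -0.07 and 0.03. Cx3cl1, the ligand of Cx3cr1 that neurons of the brain express, read 3.34, 1.91 and 2.24 against 2.16, 2.38 and 3.21, and its 4 probe sets gave differences of -0.08 to 0.11. EGFP-positive replicate 3, the library with the highest Mapt value, lay within the range of the others.

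Genes that lie next to each other on the chromosome did not all read alike. In the RefSeq order of GRCm38.p6, Ccl2, Ccl7, Ccl11, Ccl12, Ccl8 and Ccl1 follow each other on chromosome 11. The differences of the first 3 were -0.23, -0.66 and -0.76, those of Ccl12 and Ccl8 were -3.72 and -3.42, and Ccl1 was dim (1.51 to 2.03). A second run on chromosome 11, Ccl5, Ccl9, Ccl6, Ccl3 and Ccl4, had differences from -4.38 to -2.56 throughout. On chromosome 5, Cxcl3, Cxcl15, Cxcl1 and Cxcl2 are neighbours, and the differences of Cxcl1 (-0.12) and Cxcl2 (-2.78) lay far apart, although the contrast between these genes was not tested. Cxcl3, a close relative of both, read 2.25, 3.00 and 2.52 against 2.83, 3.21 and 4.02 (difference -0.76), and Cxcl15 was at 1.19 to 1.53.

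**Figure D3:**
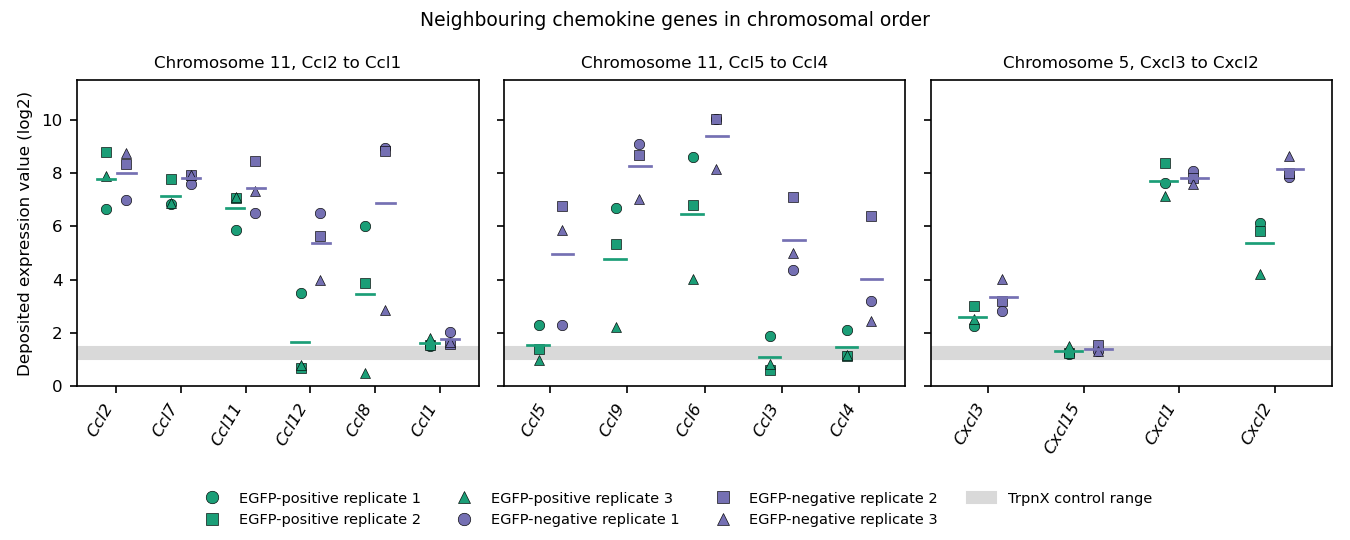
Deposited log2 value (y axis) of the genes of 3 runs of neighbouring chemokine genes in chromosomal order (x axis, not to scale), with 1 point per library, a bar at each group mean and the TrpnX background in grey. In the first run the groups overlap for Ccl2 and separate for Ccl12, and in the third they overlap for Cxcl1 and separate for Cxcl2.

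The start regions of Cxcl1, Cxcl2 and Cxcl3 are shown because these neighbours share an NF-kappaB-like motif, and Cxcl1 and Cxcl2 are the pair whose group differences lay apart. Each line gives the 250 bases before the RefSeq start, on the plus strand of GRCm38.p6 and 5′ to 3′, with matches to GGNNTTTCC on either strand in capitals. The regions are chr5:90890995-90891244 for Cxcl1, chr5:90903649-90903898 for Cxcl2 and chr5:90785851-90786100 for Cxcl3.
Cxcl1: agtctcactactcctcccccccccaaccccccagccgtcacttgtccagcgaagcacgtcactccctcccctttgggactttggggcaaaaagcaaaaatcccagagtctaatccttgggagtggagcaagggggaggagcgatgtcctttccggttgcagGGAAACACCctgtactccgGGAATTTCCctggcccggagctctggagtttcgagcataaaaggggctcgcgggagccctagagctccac
Cxcl2: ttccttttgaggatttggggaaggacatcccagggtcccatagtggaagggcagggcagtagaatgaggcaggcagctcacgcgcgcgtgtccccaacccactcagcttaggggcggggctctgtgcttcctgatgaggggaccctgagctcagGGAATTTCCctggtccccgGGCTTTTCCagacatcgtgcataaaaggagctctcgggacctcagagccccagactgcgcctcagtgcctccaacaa
Cxcl3: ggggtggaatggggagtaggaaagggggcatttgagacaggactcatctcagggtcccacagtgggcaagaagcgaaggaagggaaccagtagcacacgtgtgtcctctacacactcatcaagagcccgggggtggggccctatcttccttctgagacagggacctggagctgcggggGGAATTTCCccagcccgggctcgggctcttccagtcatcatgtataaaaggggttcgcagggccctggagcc

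Cxcl1 held matches at -89 to -81 on the reverse strand and at -70 to -62, counted back from the start. Cxcl2 held matches at -96 to -88 and at -77 to -69, and Cxcl3 held 1 at -72 to -64. The 9 letters GGAATTTCC were found in all 3 regions on the forward strand. Of the 48 genes 35 had a start region in the RefSeq table, and 8 of these held the motif, against 4.93% of all 32851 start regions of that length. The 8 were Ccl20, Ccl9, Ccr3, Cxcl1, Cxcl10, Cxcl2, Cxcl3 and Cxcl9, so that among the 12 genes with separate groups and a start region only Ccl9 and Cxcl2 did. Further motifs were searched on both strands. TATAAA was in 11 of the 35 (12.4% of all regions), TGACTCA, a site of AP-1 factors, in 4 (4.46%), and AGGAAGT, a core of ETS factor sites, in 6 (7.69%). A match is a string of letters and not a measured site.

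The other chemokine genes, which the naming rule does not cover, were mixed. Pf4, also known as Cxcl4 and made by platelets and some macrophages, read 7.42, 3.97 and 2.74 against 9.56, 8.44 and 6.88. It overlapped between the groups through EGFP-positive replicate 1 (difference -3.58, SE 1.36). Ppbp, the platelet gene of Cxcl7, and Xcl1, the ligand of Xcr1, were dim, at 2.39 to 4.02 and 1.90 to 2.31. Of the atypical receptors, which bind chemokines without signalling through G proteins, Ackr3, which takes up Cxcl12, read 8.14, 9.20 and 8.33 against 8.04, 9.12 and 8.36. Its same-numbered libraries were closer to each other than libraries of the same group were. Ackr2, a scavenger of inflammatory CC ligands in lymphatic vessels, read 6.16, 6.90 and 3.04 against 5.45, 6.87 and 3.97, low in replicate 3 of each group. Ackr1, a chemokine carrier of venules, had a difference of -0.26, and Ackr4, a scavenger of Ccl19 and Ccl21, one of -0.34. Ccrl2, a chemerin-binding relative, read 4.50, 3.96 and 4.48 against 4.69, 6.18 and 5.75 and had separate groups (difference -1.23, SE 0.41).

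Genes that act below the receptors in leukocyte migration were lower in part. Of 25 measured genes of chemokine receptor signalling and migration 0 passed (limma, adjusted over all genes), 19 had a difference below 0, and 11 had separate groups, each lower, against 53.6% and 6.04% of all genes. Rac2, a GTPase of blood cells, read 2.41, 0.84 and 1.18 against 3.40, 5.81 and 6.36, and Dock2, which activates it, read 2.39, 1.00 and 1.23 against 3.27, 5.53 and 5.40. Both had their lowest EGFP-negative value in replicate 1. Of 17 genes of NF-kappaB and alarm cytokines 0 passed and 4 had separate groups, each lower, against 6.04% of all genes. One was Il1b, the interleukin-1 beta gene, at 4.40, 2.01 and 4.11 against 8.27, 8.50 and 8.31 (difference -4.85, SE 0.65), while Tnfaip3, an inhibitor of NF-kappaB, had a difference of -1.15. Of 12 immediate early genes and 12 interferon response genes 0 passed and 0 had separate groups, with median differences of -0.06 and -0.22 against -0.02 over all genes. Jun and Egr2 had the largest differences of the first list (0.52 and -0.37) and Irf8 and Mx1 of the second (-1.87 and -0.65).

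Leukocyte markers were lower in the same libraries. The 15 macrophage markers averaged 2.46 to 6.51 in the EGFP-positive libraries and 6.71 to 8.56 in the EGFP-negative ones, all 15 had a difference below 0, and 8 had separate groups, against 53.6% and 6.04% of all genes. Within the EGFP-positive group the macrophage mean was 6.51, 3.66 and 2.46. Ccl6, Ccl8, Ccl9, Cxcl2, Cxcl16 and Cx3cr1 had that order, while Ccl2, Ccl7, Ccl11, Cxcl1, Cxcl5, Cxcl10 and Cxcl12, among others, did not. For Ccl3, Ccl4, Ccl5, Ccl12, Ccr1 and Ccr2 replicates 2 and 3 were both at or below the TrpnX maximum. The order of these 2 replicates cannot be read for them. Replicate 1 was the highest of the 3 for all 12 genes that had separate groups and a difference of -1 or less. The share of all genes with either pattern was not counted. Of the 15 markers 0, 2 and 5 were at or below the TrpnX maximum of 1.48 in EGFP-positive replicates 1, 2 and 3, and 0 in each EGFP-negative library. C1qc, a complement gene of tissue macrophages, read 6.55, 1.27 and 0.48 against 8.23, 8.39 and 6.09, so EGFP-positive replicates 2 and 3 were at or below the TrpnX range. Tyrobp, an adaptor protein of myeloid cells, read 7.35, 3.00 and 2.34 against 9.33, 9.32 and 8.16. Averages of 7 MHC class II markers were 3.55 to 5.47 against 6.36 to 7.61, those of 13 lymphocyte and mast cell markers 1.32 to 2.17 against 2.57 to 4.78, and those of 7 neutrophil markers 1.81 to 3.35 against 4.00 to 6.27. In the neutrophil list S100a8 and S100a9 read at least 7.27 in each EGFP-negative library, and Camp, a granule gene of neutrophils, read 1.42, 2.30 and 2.74 there. In the EGFP-positive libraries S100a8 read 4.44, 2.25 and 6.31, S100a9 read 4.49, 1.97 and 6.51, and Camp read 1.53, 0.95 and 1.62. The neutrophil mean was 3.02, 1.81 and 3.35 in these libraries, highest in replicate 3. The part of these cells in the chemokine values was not tested.

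Markers of other cell types were spread otherwise. Fibroblast-like cell markers averaged 9.78 to 10.56 against 10.05 to 10.90, and blood endothelium markers 5.01 to 7.09 against 6.45 to 6.76, with overlapping groups. Lymphatic endothelium (5.38 to 8.87 against 6.24 to 8.35), mesothelium (7.32 to 9.67 against 7.56 to 9.38), smooth muscle (8.17 to 10.15 against 8.41 to 10.45) and intestinal epithelium (3.47 to 6.72 against 4.30 to 5.90) overlapped as well. Enteric glia markers were higher in the EGFP-positive libraries (6.45 to 8.50 against 4.40 to 6.01), and pan-neuronal markers stood out in EGFP-positive replicate 3 only (3.34, 3.38 and 6.63 against 3.43, 3.68 and 3.97). In that library Ccl2, Ccl7, Ccl11, Cxcl1, Cxcl5 and Cxcl12 read 6.86 to 7.91, and Ccl3, Ccl8, Ccl12, Ccr1 and Ccr2 were at or below 1.45.

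**Figure D4:**
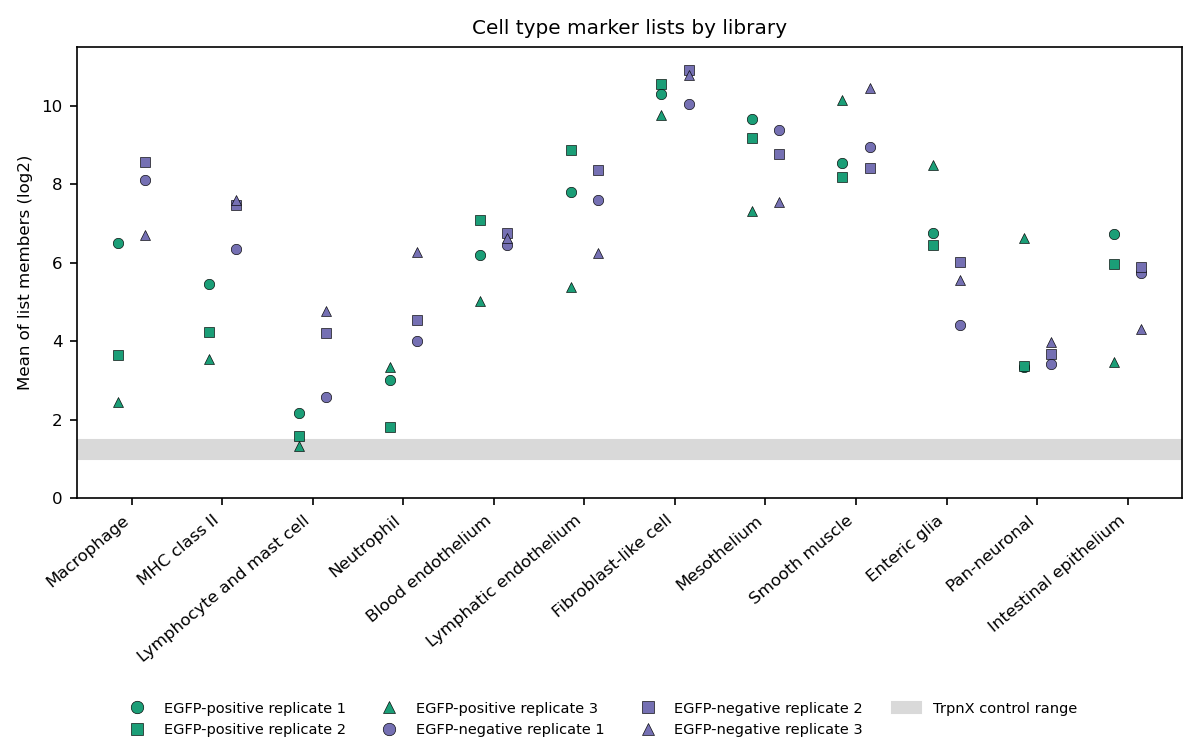
Mean log2 value of each cell type marker list (y axis) in each library, EGFP-positive in green and EGFP-negative in purple, with the TrpnX background in grey. The macrophage, MHC class II, lymphocyte and neutrophil means are lower in all 3 EGFP-positive libraries, and the fibroblast-like means overlap between 9.78 and 10.90.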

How the data were processed

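Values were read from the deposited table of log2 expression values, 1 per probe set and Affymetrix Mouse Genome 430 2.0 array, made by the authors with RMA per the submitters' processing notes. Version and settings are not given in the sources used here, and the values themselves (0.05 to 15.2) show a log2 scale. Column medians were 1.91 to 1.99 and upper quartiles 4.08 to 4.86, so the arrays do not share 1 distribution. Of 45101 probe sets, 64 were controls, 34945 had 1 symbol in the platform annotation, 932 several and 9160 none. RefSeq updated 0 of the 48 symbols.

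Differences between groups were fitted in R 4.3.3 with limma 3.58.1 (lmFit and eBayes, two-sided, Benjamini-Hochberg over 18193 genes, threshold 0.05), without a block. The fit was tested on simulated data. Same-numbered libraries had correlated deviations from their group means (Pearson r over genes of 0.364, 0.325 and 0.415). A replicate block was therefore also fitted, with the pairing taken from these data and not from the labels. The labels do not say what the number marks. P-values measure the spread among these pools. A 3-against-3 permutation cannot give a p under 0.1, and none is given for the family.

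Values in every library are given for genes above 6 in any library, genes with separate groups and an absolute difference of at least 1, and receptors of these ligands. Other genes given with values (Ccl28, Cx3cl1, Cxcl3, Cxcl13, and C1qc, Tyrobp, Camp, S100a8 and S100a9 of the marker lists) and the motifs were picked after values were seen. The genes, gene lists and tests were chosen with earlier results of these data known. Alternatives covered scaling, variance model, probe set choice, dim genes, the block and each replicate left out. Figures used Python 3.11.15, pandas 2.3.3 and matplotlib 3.10.9.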

Additional observations from a re-analysis of the deposited data

How the results depend on the processing

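There were 16 alternatives, 15 planned and 1 chosen after seeing the data. In all of them Ccr1, Ccr2, Ccl12 and Cxcl2 kept every EGFP-positive value below every EGFP-negative one, as did Ccl3 in the 15 that tested it. Only the rescalings could have undone this, and for Ccr1 and Ccr2, which had several probe sets, the probe set choices as well. Ccl3, Ccl12 and Cxcl2 had 1 probe set each. Leaving out libraries or dim genes cannot undo a separation. The number of genes with separate groups was 16, all lower, against 6.04% of all genes. It was 5, all lower, among genes above the median level, where only 15 of the 48 were tested, against 5.68% of the genes tested. Leaving out 1 replicate gave 18 to 25, both directions counted, the latter without EGFP-negative replicate 1, where 15.1% of all genes were lower without overlap. EGFP-positive replicate 3 alone, the library with the highest Mapt value, gave 33 (29.2% of all genes). Centring on ribosomal protein genes moved the median difference of all genes from -0.02 to 0.34 and gave 8 lower and 4 higher (Ccl20, Ccr3, Ccr4 and Ccr8, all dim), against 16 and 0. Over all genes that setting had 216 lower and 5196 higher, against 1099 and 559, and median centring had 576 and 819. In the family median centring gave 13 lower and 0 higher. There Ccl4, Ccl9, Ccr7, Ccr10, Cx3cr1 and Cxcl14 overlapped, and Ccl5, Ccl22 and Cxcl3 separated. Quantile normalisation gave 13 and 0, against 913 and 1167 over all genes. There Ccr10, Cx3cr1, Cxcl14, Cxcr4 and Cxcr6 overlapped, and Ccl24 and Cxcl3 separated. Differences below 0 numbered 40 and 39 of the 48 under these 2 settings. Calls over all genes numbered 0 to 2, and over the family 0 to 1, with a replicate left out. The replicate block left both at 0. Of 420 values of the 27 genes, 16 changed sign. They were Ccl2 (0.12) and Cxcl1 (0.24) with ribosomal centring, Ccr4 (-0.042), Cxcl1 (0.24) and Cxcl5 (-0.039) with array weights, and Ccr3 (-0.12) with EGFP-positive replicate 3 alone. The others came with a replicate left out, with ranges of -0.75 to 0.34 for Ccl2, -0.45 to 0.17 for Cxcl1, -0.30 to 0.56 for Cxcl5, -0.12 to 0.12 for Ccr3 and -0.081 to 0.086 for Ccr4. Trend and weighted fits and the block do not alter which values overlap. The cause of these shifts was not tested.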

Other observations

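Among probe sets with several gene symbols, 4 list a symbol of this family and were left out of the comparison. The 1 with 9 symbols read 10.30, 11.87 and 7.89 in the EGFP-positive libraries and 10.49, 11.85 and 9.37 in the EGFP-negative ones, with the lowest value of each group in replicate 3. The other 3 read 1.55 to 4.84. No gene is named from them.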
